A study of Capra hircus with 10 samples.

Results

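The circRNAs described here come from genes whose products move membrane and cargo between compartments of the cell. They were taken by the start of the host gene symbol, with 32 symbol starts that stand for Rab GTPases and their regulators, Arf regulators, coats and adaptors, sorting nexins and VPS proteins, tethers, SNAREs, autophagy proteins, flippases and lipid transfer proteins. Of these starts 18 found a circRNA, and 56 circRNAs of 40 host genes were obtained out of 1327 circRNAs and 945 named host genes. A host of another kind, VPS72, a subunit of chromatin remodelling complexes, was taken in by its symbol alone and is counted among the 56. The study compared goat intramuscular preadipocytes (IMPA) with intramuscular adipocytes (IMA), with 5 libraries of each. All cells were wild type, were isolated from fat within the longissimus dorsi muscle of 3 male Jianzhou goats aged 7 days, and were grown in culture. IMPA were harvested on day 0, and IMA on day 3 in an adipogenic medium with 50 µmol/L oleic acid, so that day and medium differ together. Since 3 goats cannot give 5 separate animals per group, the errors and p-values below hold for libraries, and those between animals could be weaker.

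Traffic between membranes runs through vesicles that bud with the help of coats and adaptors, are addressed by Rab and Arf GTPases, caught by tethers and fused by SNAREs, while sorting nexins and the retromer return cargo from endosomes. Adipocytes depend on this machinery to bring glucose transporters to the surface, to secrete adipokines and to grow lipid droplets from the endoplasmic reticulum. A circRNA is made when the end of an exon is joined to the start of the same or an earlier exon, so that the back-splice junction read marks the circle, and the non-junction reads over the same sites come from linear transcripts of the host.

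Depth was 11421 to 15553 junction reads per IMPA library and 9622 to 12499 per IMA library, and 1 read corresponded to 64.3 to 104 TPM, which here are junction reads per 1000000 junction reads of the library, with no term for length because each circle is counted at its junction. A count of 0 allows up to 3 reads, or 193 to 312 TPM, a limit that covers nothing but counting error. The smallest count above 0 was 2, so that a 0 can also stand for 1 read. By the paper's mapping statistics, a smaller share of the clean reads mapped in every IMA library than in any IMPA library. This difference runs with the group, and its part in the values below was not tested. The trafficking circRNAs were low: 82.2% of their counts above 0 were under 10, against 68.8% over all circRNAs. Of the adipocyte markers only PLIN2, of 17 listed, had circRNAs (163 to 353 TPM in IMPA against 596 to 935 in IMA, summed), and PPARG, LPL, PLIN1, FABP4 and ADIPOQ had none. Of the 2 PLIN2 circRNAs 1 could be tested on junction reads, and it was called neither higher nor lower. The adipocyte label of the IMA thus stays largely unchecked by these data. Of 18 genes on a muscle list 5 had circRNAs (MYBPC1, MYPN, FHOD3, STAC and PAX7). These summed to 989 to 1873 TPM in IMPA against 2961 to 5179 in IMA. Those of 4 of 15 fibroblast genes summed to 1401 to 2647 and 2484 to 2960 TPM, and endothelial and immune markers had none. By edgeR, 2 of 5 muscle and 1 of 5 fibroblast circRNAs were higher at an adjusted p of 0.01, and none lower. Over all circRNAs tested 0.464% were higher. The paper lists MYBPC1, MYPN, FHOD3, STAC and the fibroblast gene COL5A1 as hosts of up-regulated circRNAs. The lists were chosen with such results known, so these sums and calls are no independent support. Of 8 cell cycle genes CENPF alone had a circRNA, at 129 to 438 TPM in IMPA against 0 to 400 in IMA, where the median was 0. The part of these cells in the values below was not tested, and fewer cells of a type and less RNA per cell cannot be told apart in such bulk libraries.

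Trafficking hosts gave 3574 of 121334 junction reads. Their share was 2.57 to 3.01% in IMPA (2.86% ± 0.176, SD over 5 libraries) and 2.71 to 3.18% in IMA (3.03% ± 0.185, SD, n = 5). The ranges overlapped, and the difference of 0.17 percentage points was below the SD of either group. The number of trafficking circRNAs with reads was 52, 53, 52, 48 and 55 in IMPA1 to IMPA5 and 53, 45, 50, 47 and 44 in IMA1 to IMA5. More zeros were seen in IMA (14.6% of the 280 counts) than in IMPA (7.14%), and over all circRNAs the shares were 13.5% and 6.80%. After thinning to the depth of the smallest library, IMPA4 held 47 and IMPA5 54, and the mean was 51.6 ± 2.70 for IMPA libraries. For IMA libraries it was 47.8 ± 3.70 (SD, n = 5 each). Deposited counts above 0 start at 2, and thinning can take a count under this limit without losing it. IMA4, the smallest library, keeps the limit, so these values cannot tell whether detection differs at equal depth. Of the 56 circRNAs 24 were found in all 10 libraries, or 42.9%, against 52.0% of all circRNAs.

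In structure the trafficking circRNAs resembled the rest of the table. Their spliced length had a median of 320.5 nt (94 to 504 nt) against 320 nt over all circRNAs, and their span on the genome a median of 8367 nt (376 to 49927 nt) against 8045 nt. The longest span belonged to RABGAP1 and the shortest to SNX29. Of the 56, 54 were listed as exonic, and the 2 intronic circRNAs came from WDFY3 and EXOC6B. A single block made up 8 circRNAs (14.3%, against 15.5% of all), and both ends lay at a listed exon in 44 (78.6%, against 78.3%). Predicted pairs with miRNAs were listed for 55 of the 56, with 535 pairs in all and a median of 10 miRNAs, against 9 over all circRNAs.

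Most hosts gave 1 circle (29 of 40), 7 gave 2, and 4 gave 3 or 4. OSBPL1A, an oxysterol-binding-protein relative that senses cholesterol at late endosomes, had 4 circles on chromosome 24, placed one after another between positions 32648612 and 32736178 without sharing a splice end. The circles of ATP11A, a flippase that moves phosphatidylserine to the inner leaflet, did share ends: circ_0012128 and circ_0012131 had the same start, and circ_0012131 and circ_0012134 the same end. SEC23IP, which binds the COPII coat at exit sites of the endoplasmic reticulum, and ASAP2, a GTPase-activating protein for Arf, each had 3 circles, a pair of them with a common start. Positions are those of the deposited table, counted from 1, and the genome build is not given in the sources used here.

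**Figure D1:**
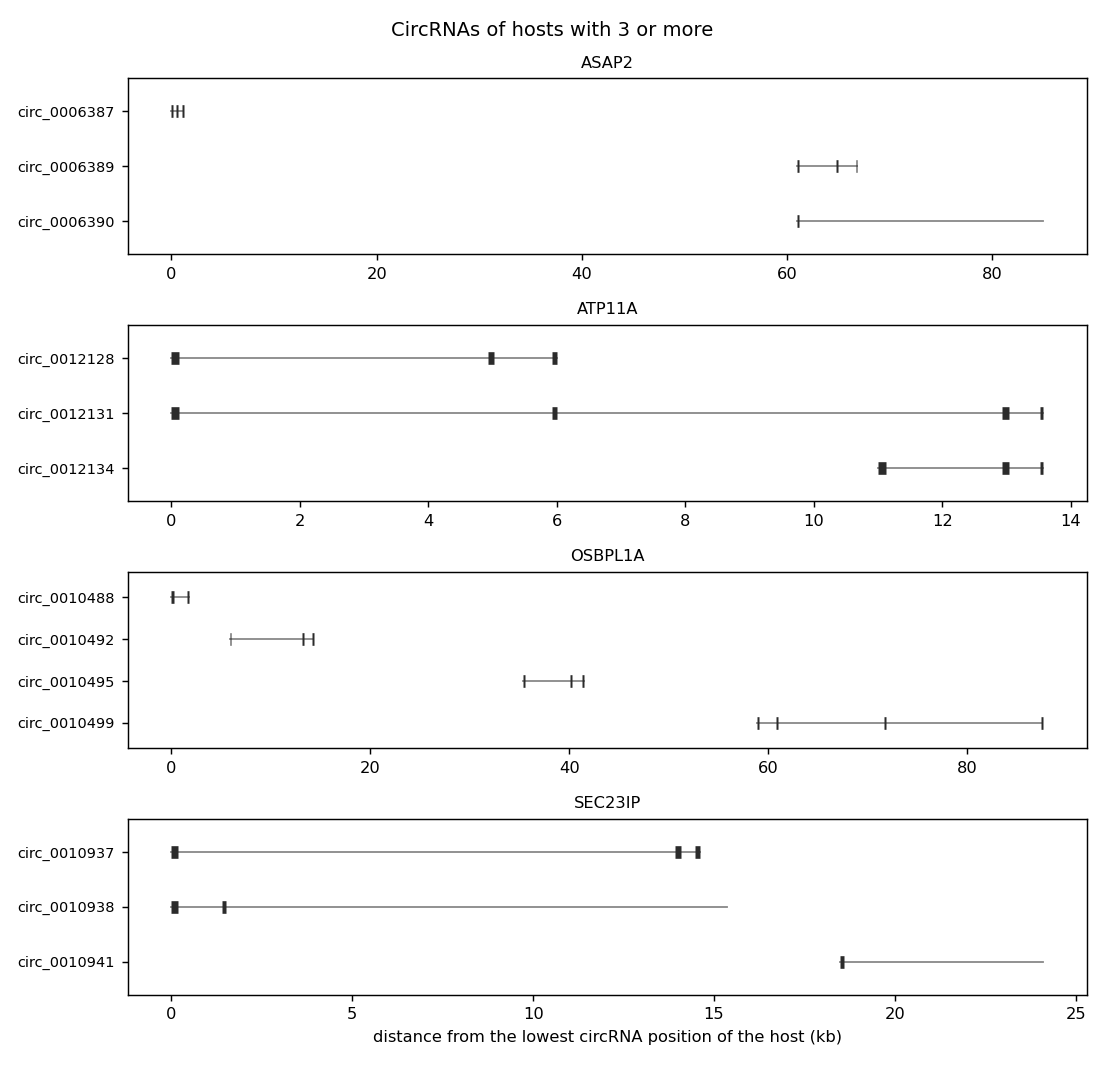
CircRNAs of the 4 hosts with 3 or more, drawn to scale. The x axis is the distance in kb from the lowest position of any circRNA of the host, each line is the span of a circRNA, and the dark blocks are its listed exons (the narrowest are widened to remain visible). The 4 circles of OSBPL1A do not overlap, whereas those of ATP11A, SEC23IP and ASAP2 share sites. Where a line runs beyond the last block, that end of the circle is not at a listed exon.

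A few circles held much of the signal. The 6 trafficking circRNAs with the highest mean TPM gave 1103 of the 3574 reads, or 30.9%. SNX13, a sorting nexin of endosomes and of contacts between the endoplasmic reticulum and lipid droplets, led with a mean of 3337 TPM from a circle of 4 exons (circ_0002498, chromosome 4, 94130074 to 94136555). It was followed by WDFY3 (1666 TPM), a scaffold that brings protein aggregates to autophagosomes, DTNBP1 (1179 TPM), the dysbindin subunit of the BLOC-1 complex of endosomes, and COG3 (1059 TPM), a subunit of the Golgi tether COG. RAB23, a Rab GTPase known for restraining Hedgehog signalling, had 965 TPM and TBC1D19, a TBC domain protein of the Rab GTPase-activating family, 941 TPM. The median of the 56 was 403 TPM, against 458 TPM over all circRNAs. By role the 14 circles of sorting nexins and VPS proteins held 1054 reads, the 12 of coats and adaptors 486, the 8 of flippases and lipid transfer proteins 485, and the 5 of proteins named for Rab 386.

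To ask whether the circles changed with adipogenic differentiation, junction reads were tested between IMA and IMPA. None of the 56 trafficking circRNAs passed an adjusted p of 0.01 by edgeR, and none passed 0.05. Over the 1294 circRNAs tested, 6 were higher in IMA at 0.01 (0.464%) and 6 were lower (0.464%), or 0.927% in either direction (1.47% at 0.05), so that few or no calls among 56 is near the background. At an unadjusted p under 0.05 there were 8 trafficking circRNAs, 4 of them higher in IMA, against 13.3% of all tested. By DESeq2 and limma voom none passed 0.01 either. The log2 fold changes of IMA over IMPA ran from -1.21 to 0.98 with a median of -0.07, the same as the median over all circRNAs (-0.07), and 26 of the 56 were above 0. Normalized TPM, with TMM scaling factors, did not overlap between the groups for 3 of the 56 (5.36%), against 4.56% of all tested.

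**Figure D2:**
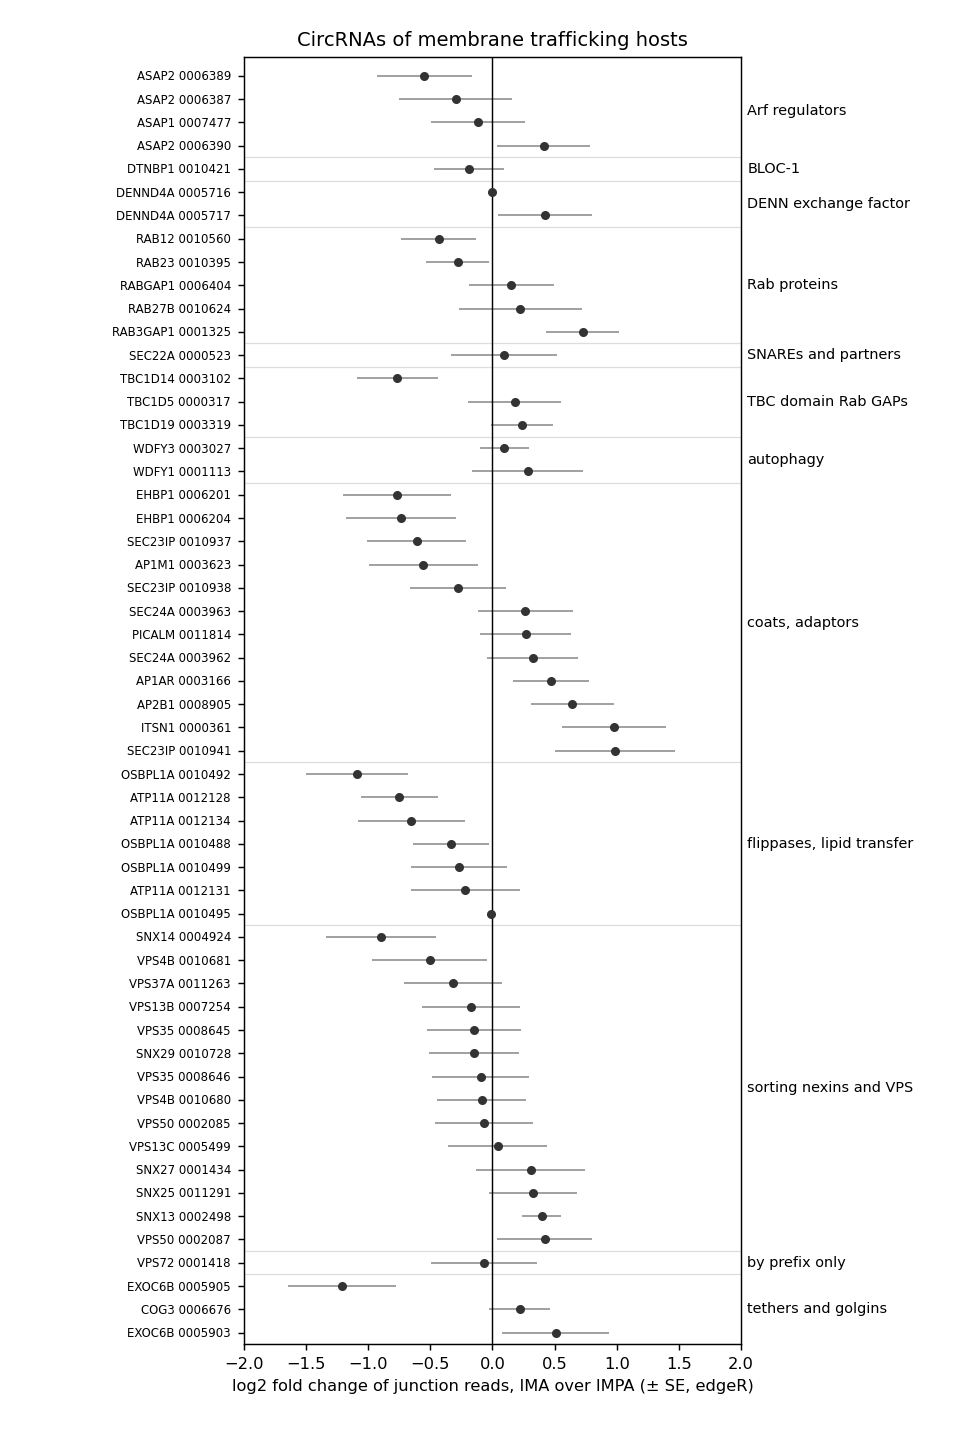
Change of junction reads for 55 of the 56 circRNAs of trafficking hosts, ordered within role. The x axis is the log2 fold change of IMA over IMPA from edgeR, points are estimates, bars are ± 1 standard error (no bar is drawn for DENND4A circ_0005716 and OSBPL1A circ_0010495, where the p was above 0.95 and no standard error is given), and labels give the host and the number of the circRNA. Estimates lie on both sides of 0 among sorting nexins and VPS proteins and among coats and adaptors, and the 7 circles of ATP11A and OSBPL1A lie below 0.

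Among sorting nexins and VPS proteins, SNX13 had the most reads to judge by. Its circle counted 38, 27, 51, 30 and 43 junction reads in IMPA1 to IMPA5 and 38, 36, 55, 42 and 39 in IMA1 to IMA5, which is 2847 ± 563 normalized TPM in IMPA against 3812 ± 476 in IMA (SD, n = 5 each). The groups overlapped, as IMPA3 lay above 3 of the IMA libraries. The log2 fold change was 0.40 ± 0.16 (SE, edgeR adjusted p = 0.226). SNX14, which tethers lipid droplets to the endoplasmic reticulum, had 5, 3, 8, 6 and 10 reads in IMPA and 4, 6, 0, 0 and 0 in IMA. Reads were thus found in every IMPA library and in 2 of 5 IMA libraries, with a log2 fold change of -0.89 ± 0.44 (SE, adjusted p = 0.375), or -1.34 without IMA2. VPS35, the cargo-binding core of the retromer, gave 2 circles with the same start on chromosome 18, and neither moved by more than its SE (-0.15 ± 0.38 and -0.09 ± 0.39, SE). The remaining circles of SNX25, SNX27, SNX29, VPS13B, VPS13C, VPS37A, VPS4B and VPS50 had log2 fold changes of -0.50 to 0.42, and none passed the test.

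Among flippases and lipid transfer proteins, the 7 estimates of ATP11A and OSBPL1A were below 0. ATP11A circ_0012128 counted 8, 6, 10, 15 and 23 reads in IMPA and 7, 4, 8, 5 and 3 in IMA, that is 923 ± 438 normalized TPM in IMPA against 484 ± 152 in IMA (SD, n = 5 each). IMPA3, IMPA4 and IMPA5 stood above all IMA libraries after scaling and the other IMPA libraries lay among them, with a log2 fold change of -0.75 ± 0.31 (SE, adjusted p = 0.235). OSBPL1A circ_0010492 (chromosome 24, 32654456 to 32662838) had 5, 7, 9, 4 and 5 reads in IMPA and 2, 0, 2, 3 and 0 in IMA. Every IMPA library lay above every IMA library in normalized TPM, although both counts are small (log2 fold change -1.09 ± 0.41, SE, adjusted p = 0.204). The most abundant OSBPL1A circle, circ_0010495, did not share this difference: it stood at 755 ± 333 normalized TPM in IMPA against 754 ± 277 in IMA (SD, n = 5 each).

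Coats, adaptors and endocytic proteins showed estimates in both directions, 7 of 12 above 0. AP2B1, the β subunit of the clathrin adaptor AP-2, counted 8, 0, 7, 7 and 8 reads in IMPA and 12, 9, 9, 7 and 7 in IMA. The scaled values of both groups stayed apart, at 0 to 584 normalized TPM in IMPA against 671 to 1059 in IMA. The log2 fold change was 0.64 ± 0.33 (SE, edgeR adjusted p = 0.397), and 0.43 without IMPA2, the library with the 0. ITSN1, a scaffold of clathrin-coated pits, counted 4, 3, 0, 0 and 3 reads in IMPA and 4, 5, 4, 8 and 4 in IMA. Its groups did not overlap after scaling either, with a log2 fold change of 0.98 ± 0.42 (SE, adjusted p = 0.249). AP1AR, a regulator of AP-1 vesicles, ranged over 5 to 9 reads in IMPA against 5 to 10 in IMA (0.47 ± 0.30, SE, adjusted p = 0.509). SEC23IP circ_0010941 was found in 2 IMPA libraries with 2 and 4 reads and in 3 IMA libraries with 9, 7 and 3 reads, and its estimate of 0.98 ± 0.48 (SE, adjusted p = 0.368) stood apart from the -0.61 and -0.28 of the other SEC23IP circles. EHBP1, which links endocytosis to actin, gave 2 circles. The first, circ_0006201, had 2 to 5 reads in every IMPA library and 4 reads in IMA4 alone among the IMA libraries (-0.76 ± 0.44, SE, adjusted p = 0.452, and -1.32, adjusted p = 0.12, without IMA4), and the second, circ_0006204, had 3 to 7 reads per IMPA library and was found in 2 of 5 IMA libraries (-0.73 ± 0.44, SE, adjusted p = 0.484).

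Among Rab proteins and their regulators, RAB3GAP1, the catalytic subunit of the complex that inactivates RAB3 and activates RAB18, counted 8, 4, 8, 6 and 12 reads in IMPA and 6, 9, 17, 19 and 7 in IMA. IMA2, IMA3 and IMA4 were above every IMPA library after scaling and the other IMA libraries lay within their range, at 563 ± 161 normalized TPM in IMPA against 1060 ± 565 in IMA (SD, n = 5 each), with a log2 fold change of 0.73 ± 0.30 (SE, adjusted p = 0.233), or 0.48 without IMA4. TBC1D14, which acts on recycling endosomes and autophagy, counted 14, 8, 8, 8 and 6 reads in IMPA and 5, 3, 4, 3 and 3 in IMA. Only IMPA5 fell within the IMA range, and the log2 fold change was -0.76 ± 0.33 (SE, adjusted p = 0.253). None of the other circles of this machinery passed the test, with estimates of -0.43 ± 0.30 for RAB12, -0.28 ± 0.25 for RAB23, 0.15 ± 0.34 for RABGAP1 and 0.22 ± 0.49 for RAB27B.

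The tethers gave the estimate of largest size and the smallest adjusted p of the 56. EXOC6B, a subunit of the exocyst that docks secretory vesicles at the plasma membrane, has an intronic circle (circ_0005905, chromosome 11, 11665000 to 11665961) with 3, 7, 7, 7 and 12 reads in IMPA and 3, 0, 5, 0 and 0 in IMA. It had no count in 3 IMA libraries, and the other 2 lay above IMPA1 and below the rest of the IMPA libraries, with a log2 fold change of -1.21 ± 0.43 (SE, adjusted p = 0.175). The exonic circle of the same host, circ_0005903, counted 10, 4, 2, 0 and 2 reads in IMPA and 8, 4, 3, 8 and 2 in IMA (0.51 ± 0.43, SE, adjusted p = 0.643). COG3 had a small estimate, at 9 to 16 reads in IMPA against 7 to 16 in IMA (0.22 ± 0.25, SE), as had WDFY3 with 16 to 28 and 16 to 21 reads (0.10 ± 0.20, SE) and TBC1D19 with 10 to 13 and 7 to 15 (0.24 ± 0.25, SE). DTNBP1 varied widely within the groups, with 17, 3, 22, 13 and 32 reads in IMPA and 8, 9, 22, 10 and 13 in IMA (-0.19 ± 0.28, SE).

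Reads were also summed over all circles of a host, which lends more reads to hosts with several. None of the 40 trafficking hosts passed 0.01 by edgeR, where 5 of the 922 hosts tested were higher (0.542%) and 7 lower (0.759%), or 1.3% in all. None passed 0.05 either, beside 0.651% higher, 1.52% lower and 2.17% in all. At an unadjusted p under 0.05 there were 8 trafficking hosts, against 16.2% of all hosts tested, and none passed 0.01 by DESeq2 or limma voom. Closest was ATP11A, whose 3 circles summed to 17, 16, 22, 20 and 32 reads in IMPA and 14, 9, 11, 9 and 7 in IMA. Every IMPA library had more reads than every IMA library before scaling for depth, and the log2 fold change was -0.71 ± 0.23 (SE, adjusted p = 0.097). The next hosts by p were SNX13 (0.42 ± 0.16, SE, adjusted p = 0.159), RAB3GAP1 (0.75 ± 0.29, SE, adjusted p = 0.192), EHBP1 (-0.96 ± 0.39, SE, adjusted p = 0.193) and ITSN1 (1.0 ± 0.41, SE, adjusted p = 0.197). TBC1D14, AP2B1 and SNX14 had estimates of -0.74, 0.67 and -0.88. Over the 4 circles of OSBPL1A the estimate was -0.38 ± 0.19 (SE, adjusted p = 0.318), from -1.09 to -0.01 for single circles, and over the 3 of ASAP2 it was -0.09 ± 0.26 (SE), from -0.55 to 0.41. The 3 circles of SEC23IP, which ranged from -0.61 to 0.98, summed to an estimate of -0.02.

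The linear reads of the same loci were more numerous, and some of them changed. A non-junction value exists only where a library had a junction read, so the test used the 690 circRNAs with values in all 10 libraries, 24 of them from trafficking hosts. Of the 24, 3 were higher in IMA and 3 lower at an adjusted p of 0.01 by edgeR, beside 11.6% higher and 10.1% lower (21.7% in either direction) over all 690, and the median log2 fold change was -0.14 against 0.00 over all.

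RAB12, a Rab GTPase that directs recycling cargo such as the transferrin receptor to lysosomes, rose most. Over its circ_0010560 (chromosome 24, 41438356 to 41446706) there were 703, 642, 682, 664 and 800 non-junction reads in IMPA and 758, 840, 980, 738 and 854 in IMA, and after scaling 3323 ± 118 per 1000000 in IMPA against 5909 ± 380.5 in IMA (SD, n = 5 each). The groups lay far apart, a 1.78-fold difference (log2 fold change 0.83 ± 0.06, SE, adjusted p = 7.29e-13). Its junction reads did not go the same way, with 7, 7, 19, 18 and 9 in IMPA and 11, 6, 7, 6 and 5 in IMA.

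DTNBP1 fell most. Non-junction reads over circ_0010421 (chromosome 23, 8944679 to 8959897) were 1168, 948, 1295, 1094 and 1500 in IMPA and 486, 431, 631, 446 and 477 in IMA. After scaling they came to 5675 ± 430.5 per 1000000 in IMPA against 3484 ± 172 in IMA (SD, n = 5 each), a 1.63-fold difference with no overlap (log2 fold change -0.70 ± 0.06, SE, adjusted p = 1.32e-10). RAB23 fell from 2370 ± 123 to 1922 ± 173 per 1000000 (SD, n = 5 each; log2 fold change -0.30 ± 0.07, SE, adjusted p = 0.00114), with the highest IMA library just below the lowest IMPA library. At OSBPL1A circ_0010495 the values were 593 ± 37.9 in IMPA against 447 ± 19.4 in IMA (SD, n = 5 each; -0.40 ± 0.10, SE, adjusted p = 0.00299). The loci of a second OSBPL1A circle, circ_0010488, pointed the same way without passing 0.01 (-0.42 ± 0.14, SE, adjusted p = 0.0234), and these circles share a host, so they are not independent.

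PICALM, which assembles clathrin at the plasma membrane, and RAB3GAP1 rose by small amounts. PICALM had 2701 ± 90.0 per 1000000 in IMPA against 3144 ± 181 in IMA (SD, n = 5 each; log2 fold change 0.22 ± 0.06, SE, adjusted p = 0.00647), and RAB3GAP1 2245 ± 150.3 and 2630 ± 107 (SD, n = 5 each; 0.23 ± 0.06, SE, adjusted p = 0.00681). Neither pair of groups overlapped. Both calls were lost without TMM (log2 fold changes 0.15 and 0.16) and without IMPA2, IMPA4, IMA4 or IMA5, that of PICALM also without IMA1 or IMA2 and that of RAB3GAP1 without IMPA5 or IMA3, and both turned to -0.43 and -0.42 when scaled to the clean reads of the libraries, a scaling that moved the median of all loci by -0.64. Under that scaling RAB12 stood at 0.19 (edgeR adjusted p = 0.0725). It called 23 of the 24 loci lower, where the median log2 fold change of all loci was -0.64, and the share of all loci called is not given here.

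When libraries without a value were left out in place of the circRNA, in a limma fit chosen after seeing the data, 50 trafficking loci could be tested, and 4 were higher and 3 lower, beside 9.97% and 9.55% over the 1183 loci of that fit. DENND4A, a Rab exchange factor with a DENN domain, then joined the rises, with 0.36 ± 0.10 at circ_0005717 (SE, adjusted p = 0.0074) and 0.38 ± 0.12 at its neighbour circ_0005716 (SE, adjusted p = 0.015), of which only the first passed 0.01. The 3 loci that fell were DTNBP1, RAB23 and OSBPL1A circ_0010495 here too. Most loci of the endosomal sorting machinery had small differences: VPS35 at 0.01 and 0.09, VPS4B at -0.15 and -0.12, SNX13 at -0.13, and SNX25, the largest of them, at 0.34 ± 0.12 (SE, adjusted p = 0.0354).

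**Figure D3:**
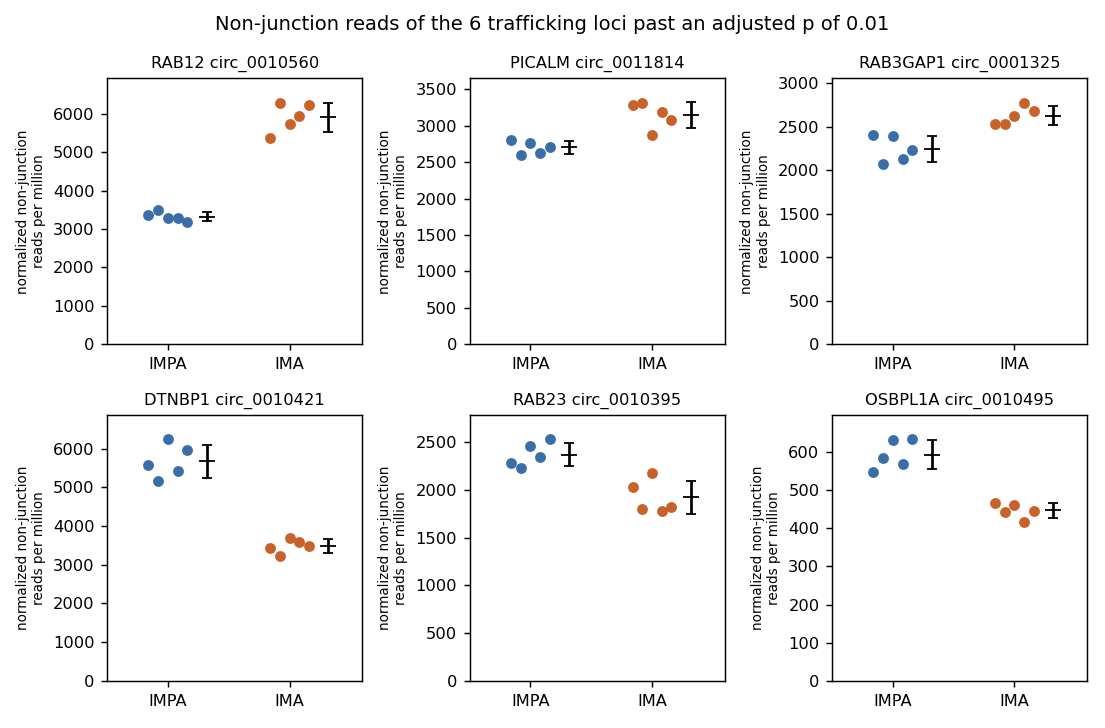
Non-junction reads per 1000000 with TMM scaling at the 6 trafficking loci past an adjusted p of 0.01, with points for each of 5 IMPA and 5 IMA libraries in the order of their numbers, and the mean ± SD beside them. The y axes start at 0. RAB12 rose from 3323 to 5909 and DTNBP1 fell from 5675 to 3484, while the shifts of PICALM, RAB3GAP1, RAB23 and OSBPL1A are smaller but do not overlap.

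The circular share, in which each junction read counts 2 times and is set against the total with non-junction reads added, relates the circle to the linear transcripts of its site. It differed widely between hosts. EXOC6B circ_0005905 and WDFY3 circ_0003027, the 2 intronic circles, stood highest with mean shares of 68.8 and 51.5% in IMPA, and 75.5 and 63.8% in IMA. At EXOC6B this rests on 1 to 8 non-junction reads per library, and in IMA on IMA1 and IMA3 alone (60.0 and 90.9%). The linear transcripts at sites listed as intronic can differ in kind from those at exonic sites, which was not tested. By the mean over all libraries, WDFY1, PICALM, VPS35 circ_0008646 and RAB12 stood lowest, at 1.40 to 3.34% in either group. Shares above 20% over all libraries were found for 10 of the 56 and shares under 5% for 16. By role the median share was 24.2% for the circles of Arf regulators, 7.41% for sorting nexins and VPS proteins and 5.31% for coats and adaptors. The share is computed only where a junction read was found, so that for scarce circles it is an upper estimate, most of all in EHBP1 circ_0006201 with a single IMA library.

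**Figure D4:**
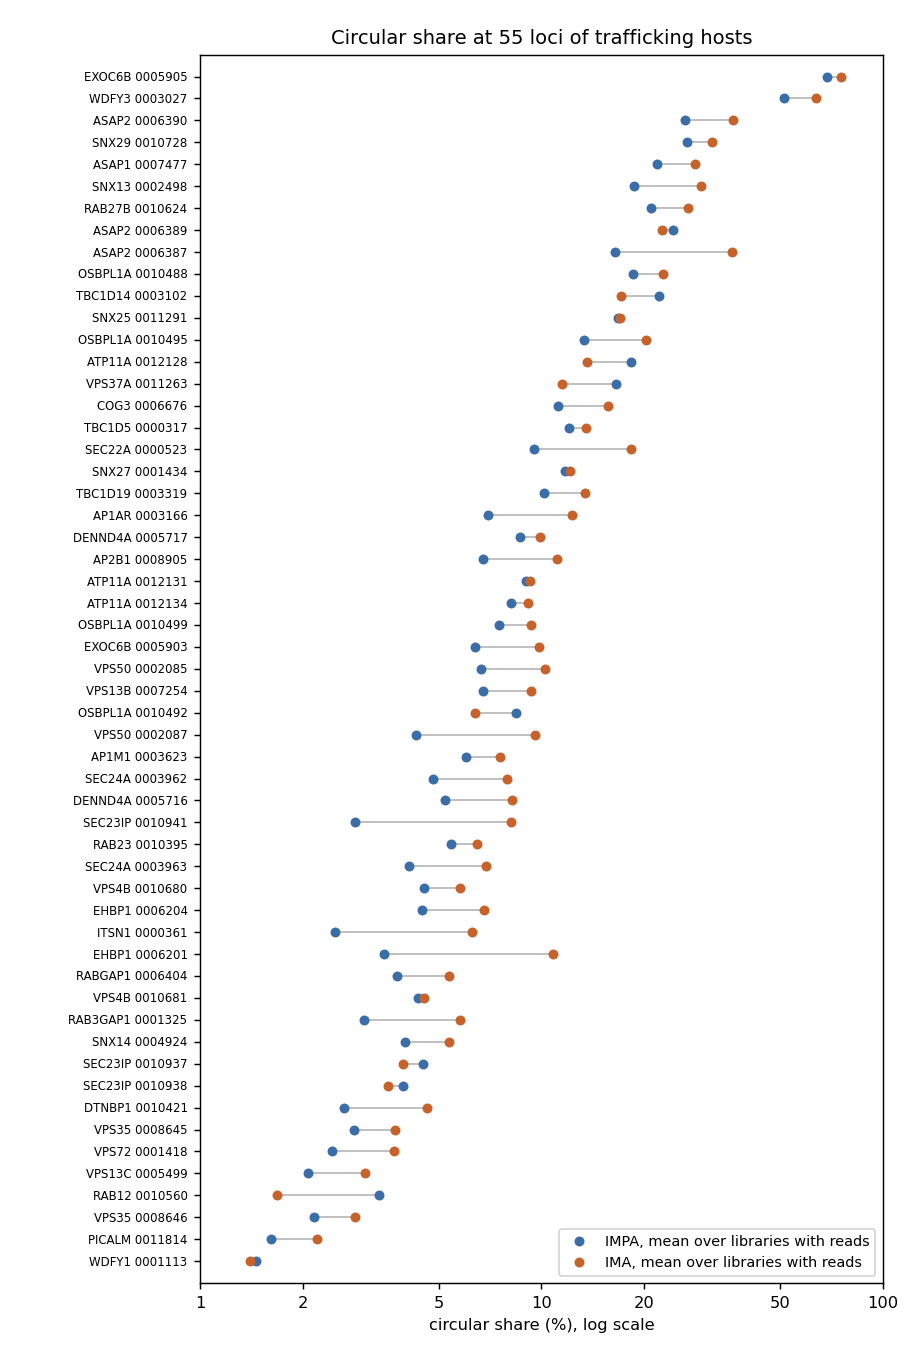
Circular share in percent, on a log axis, for 55 of the 56 circRNAs, with a blue point for the mean over IMPA libraries and an orange point for the mean over IMA libraries that had junction reads. Labels give the host and the number of the circRNA. Shares run from about 1.40% at WDFY1 to 75.5% at EXOC6B circ_0005905 (mean of IMA1 and IMA3 alone), and for most circles the orange point lies to the right of the blue one.

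The median share over the trafficking circles was 5.69 to 7.5% in the IMPA libraries and 8.71 to 10.8% in the IMA libraries. The groups did not overlap, and neither did they over all circRNAs, at 7.44 to 8.60% and 9.45 to 10.8%. On the log2 ratio of junction to non-junction reads, which limma tested for 1259 circRNAs and 55 trafficking ones, the median difference was 0.49 for trafficking circles and 0.37 for all, and 47 of the 55 were above 0 (85.5%), as were 960 of the 1259 (76.3%). Among circles with reads in all 10 libraries the medians were 0.55 over 24 and 0.34 over 690. This set has no zeros, but it was chosen on the junction counts themselves, so it cannot set aside the part of the detection limit. Of the 55, 1 was higher at an adjusted p of 0.01 and none lower, beside 1.67% higher and 0.0% lower over all tested. At 0.05 the count was 3 higher and none lower, beside 5.0%, 0.0794% and 5.08% in all, and 14 of the 55 had an unadjusted p under 0.05, 13 of them higher, near the 24.2% over all tested (305 of 1259, 285 of them higher).

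The call was SNX13. Its circular share was 19.4, 15.3, 25, 15.6 and 18.1% in IMPA1 to IMPA5 and 27.7, 29.9, 28.6, 31.9 and 28.9% in IMA1 to IMA5. Every IMA library lay above every IMPA library, with 18.7% ± 3.92 in IMPA against 29.4% ± 1.6 in IMA (SD, n = 5 each), and the log2 ratio differed by 0.88 ± 0.20 (SE, limma adjusted p = 0.00231). Both parts moved a little, the junction reads by 0.40 and the non-junction reads by -0.12 on the log2 scale, and neither passed its own test. Since the ratio of all circRNAs was higher in IMA by 0.37, the difference relative to the median was 0.51 and did not pass (adjusted p = 0.185). The call was also lost without IMPA2 (0.80, adjusted p = 0.0135), without IMPA4 (0.81, adjusted p = 0.0228), and in the interaction test of edgeR (0.58, adjusted p = 0.0732).

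DTNBP1 and VPS50, a subunit of the complex that recycles cargo from endosomes, came next without passing 0.01. DTNBP1 had shares of 2.83, 0.63, 3.29, 2.32 and 4.09% in IMPA and 3.19, 4.01, 6.52, 4.29 and 5.17% in IMA, which overlap (log2 ratio 1.03 ± 0.31, SE, limma adjusted p = 0.0304). Without IMPA2, the library with the lowest share, the difference was 0.60 (adjusted p = 0.229). The non-junction reads of this host had fallen by 0.70 on the log2 scale, and the estimate for its junction reads was -0.19 ± 0.28 (SE). VPS50 circ_0002087 had 2.56, 3.31, 2.50, 5.33 and 7.69% in IMPA and 6.25, 8.0, 11.6, 12.7 and 9.52% in IMA (1.26 ± 0.39, SE, adjusted p = 0.037), and only IMPA5 reached into the IMA range.

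Only 8 of the 55 ratios were below 0, and RAB12 was the lowest. Its share was 1.95, 2.13, 5.28, 5.14 and 2.20% in IMPA and 2.82, 1.41, 1.41, 1.6 and 1.16% in IMA. IMA1 lay within the IMPA range and the other IMA libraries below it, and the difference of -0.91 ± 0.34 (SE) did not pass in limma (adjusted p = 0.0878), whereas the interaction test of edgeR, which also scales each kind of read, gave -1.28 ± 0.32 (SE, adjusted p = 0.00694). ATP11A circ_0012128 (18.3% ± 5.30 in IMPA against 13.6% ± 4.08 in IMA, SD, n = 5 each) and VPS37A, a subunit of ESCRT-I (16.6% ± 7.36, n = 4, and 11.5% ± 3.98, n = 5, SD), were next, with adjusted p of 0.430 and 0.463.

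**Figure D5:**
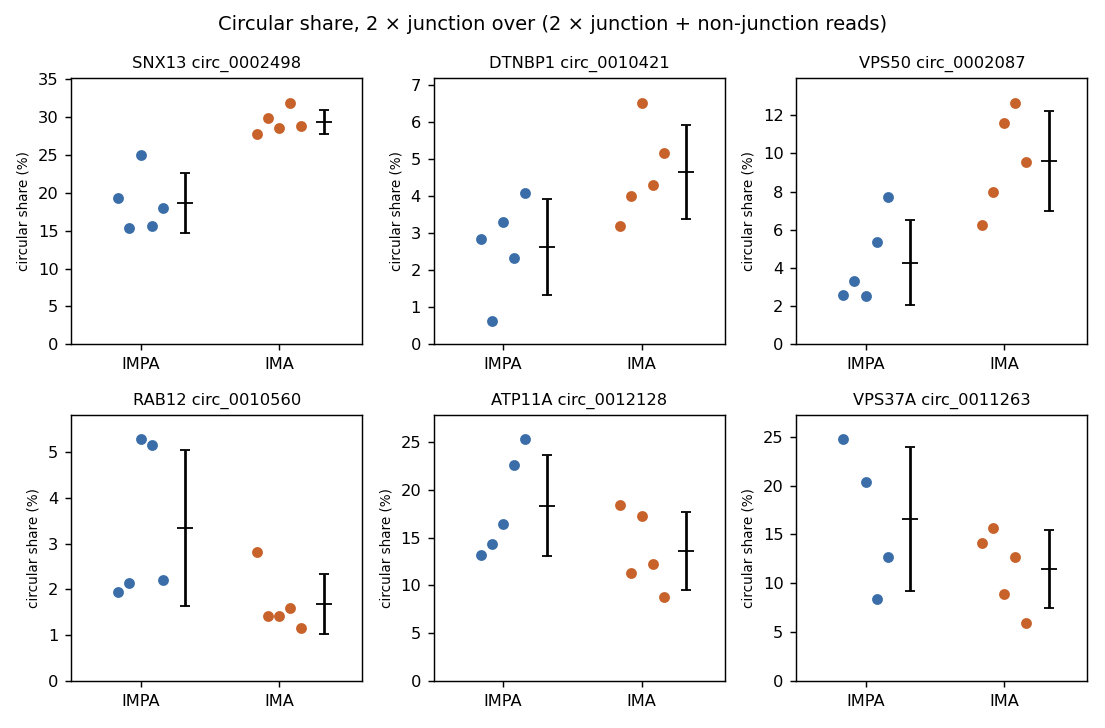
Circular share in percent at the 3 trafficking circRNAs with the smallest p in each direction, with a point per library in the order of their numbers and the mean ± SD beside them. The y axes start at 0. The IMA libraries of SNX13 sit between 27.7 and 31.9%, all above the IMPA libraries, DTNBP1 and VPS50 overlap slightly, and RAB12, ATP11A and VPS37A have lower means in IMA with overlapping libraries. VPS37A has no value in IMPA2.

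A further list held trafficking genes outside the symbol starts, among them clathrin, dynamins, synaptojanins, ESCRT subunits and SNARE partners. Of its genes 17 were hosts, with 29 circRNAs and 2026 junction reads. None of the 29 passed on junction reads by edgeR, 2 had an unadjusted p under 0.05 (13.3% over all circRNAs), and the median log2 fold change was -0.01. Of 14 tested on non-junction reads 2 fell and none rose, beside 10.1% and 11.6% over all tested. Those that fell were DAB2, an adaptor for clathrin-mediated uptake (-0.73 ± 0.12, SE, edgeR adjusted p = 2.72e-05), and LMAN2, a cargo lectin of the early secretory pathway (-0.27 ± 0.07, SE, adjusted p = 0.00582), both named after their values were seen. None of 28 passed on the ratio by limma, 7 had an unadjusted p under 0.05 (24.2% over all), and the median difference was 0.14.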

How the data were processed

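Ribosomal RNA was removed from total RNA before sequencing, and circRNAs were called by the authors with 2 programs, find_circ (2 or more reads) and CIRI2, and kept where both gave the same location. The back-splice junction read counts per circRNA and library were used as deposited. Deposited beside them, under the name TPM, are CPM values, each count per 1000000 junction reads of its library with no term for length. Positions, lengths, non-junction reads and predicted miRNA pairs were taken as deposited in other tables, and all 56 host gene IDs matched the RefSeq table, which also gave the chromosomes. Neither tool versions nor a genome build are given in the sources used here, and 10 further libraries named in the location table were not used here.

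Members and lists were chosen with earlier results of these data known. For the tests of counts, edgeR 4.0.16 was run in R 4.3.3 (TMM, glmQLFit and glmQLFTest, prior count 2) over circRNAs found in 5 or more of 10 libraries, with Benjamini-Hochberg adjustment over all tested at 0.01, the threshold of the study. DEGseq, which the study used, takes no account of the spread between libraries and was not used. The standard error is the log2 fold change over the square root of the F statistic, and is not given above a p of 0.95. Non-junction reads exist only for libraries with a junction call, so the same test was restricted to circRNAs with values in all 10 libraries, a change from the planned 5. The log2 ratio, with a pseudocount of 0.5, was tested with limma 3.58.1 (trend), with at least 5 libraries and 2 per group. The tests were checked on simulated data. DESeq2 1.42.0, limma voom, other scalings and filters, a block for the replicate number and leaving out each library were alternatives. Named circRNAs were up to 6 in each direction by p and the 6 most abundant for junction reads, calls and otherwise the 3 smallest p in each direction for the other measures, and for hosts 4 in each direction and all with 3 or more circles. Replicate numbers were not taken as pairs, since the residual correlations of same-numbered libraries were -0.05 to 0.01 for junction reads and -0.04 to 0.07 for non-junction reads. Python 3.11.15 with pandas 2.3.3 and numpy 2.4.6 was used for the rest. The values of 1 circRNA are not reported here, and it stays in the counts and tests.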

Additional observations from a re-analysis of the deposited data

Results flagged for a closer look

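Of 62 groups of 5 libraries tested with Dixon's test for a single distant library, 4 were past its limit, and chance alone gives about 1 in 20. AP2B1 circ_0008905 in IMPA had a gap of 0.890 of the range, from the 0 of IMPA2 beside 7 or 8 reads in the other libraries. TBC1D14 circ_0003102 in IMA had a gap of 0.756, with IMA1 above the other libraries (441 normalized TPM against 281 to 320). EHBP1 circ_0006201 in IMA had a gap of 1.0, since IMA4 alone had reads. The share of junction reads from trafficking hosts in IMA had a gap of 0.752, with IMA5 at 2.71% below the 3.07 to 3.18% of the other libraries.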

How the results depend on the processing

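No trafficking circRNA passed an adjusted p of 0.01 on junction reads under any alternative or with any library left out (0 to 0 in both directions). At 0.05 the result did depend on the processing. Among the named circRNAs, SNX13 circ_0002498, ATP11A circ_0012128 and EXOC6B circ_0005905 fell under 0.05 in some alternative. The share of all circRNAs that did so is not given here. Of the counts above 0, 82.2% were under 10, and the smallest difference detectable at this depth was not measured. The shares of all features called are not given for the alternative scalings, the interaction test or the fits with a library left out. The host sums gave 0 to 0 calls with a library left out, and 1 lower call when scaled to clean reads (ATP11A, log2 fold change -1.02, edgeR adjusted p = 0.0038). Under that scaling the median of all hosts was -0.34 in place of -0.05. On non-junction reads the calls higher in IMA were 1 without TMM, 1 when scaled to uniquely mapped reads and 0 when scaled to clean reads. Under the scaling to clean reads 23 were lower, where the median log2 fold change of all loci was -0.64. With a library left out the calls were 1 to 3 higher and 2 to 4 lower (1 higher without IMPA2, IMPA4, IMA4 or IMA5). Of these calls DTNBP1 and RAB23 passed in all alternatives, RAB12 in all but the scaling to clean reads, and OSBPL1A circ_0010495 in all but those without IMPA3 (-0.37, adjusted p = 0.0115) or IMPA5 (-0.37, adjusted p = 0.0101). On the ratio 3 were higher at a threshold of 0.05, and 0 in the edgeR interaction test, without the trend and with libraries centred on their median. The call of SNX13 was also lost without IMPA2 or IMPA4. The interaction test called 1 lower, RAB12, and with a library left out there were 0 to 1 higher and 0 to 0 lower. The difference in the share of reads was -0.11 percentage points for non-junction reads in place of 0.17, and 0.0984 to 0.250 with a library left out. The difference in circRNAs detected was -8.6 at a count of at least 5 in place of -4.2, and -5.5 to -3.25 with a library left out.

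Estimates that changed sign were small and had not passed, apart from PICALM (-0.43) and RAB3GAP1 (-0.42) on non-junction reads scaled to clean reads. On junction reads they were DTNBP1 at 0.038 when scaled to uniquely mapped reads and -0.40 to 0.055 with a library left out (above 0 without IMPA5 alone), and, scaled to clean reads, WDFY3 at -0.20, COG3 at -0.066 and TBC1D19 at -0.045, where the median of all circRNAs was -0.32 in place of -0.07. Among hosts, SEC23IP was at 0.0041 with DESeq2 size factors, 0.024 without TMM, 0.17 with uniquely mapped reads, 0.00023 with filterByExpr, and -0.25 to 0.18 with a library left out (above 0 without IMPA1, IMPA2, IMPA5, IMA2 or IMA5), and ASAP2 was at 0.11 with uniquely mapped reads and -0.23 to 0.061 with a library left out (above 0 without IMPA1 or IMA2). The cause was not tested.

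With the replicate number as a block, the counts were 0 and 0 for junction reads and hosts, 3 higher and 3 lower for non-junction reads, and 1 higher and 0 lower for the ratio, so that the block changed no call and SNX13 had a log2 ratio of 0.88. No COPS or SNAPC host was among the circRNAs, so leaving them out changed nothing, and the unfiltered test of non-junction reads was not run because missing values are not counts of 0. Of the alternatives chosen after seeing the data, the limma fit of non-junction reads gave 4 higher and 3 lower of 50 (9.97% and 9.55% over all loci), the ratio with values in at least 4 libraries per group 1 higher and 0 lower, and the share of reads without VPS72 a difference of 0.17 percentage points.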

Other observations

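Within hosts of several circles, the share of the host's junction reads held by each circle varied between libraries, and these shares were not tested. At EXOC6B the intronic circle held 66.7% of 54 reads pooled over IMPA and 24.2% of 33 reads pooled over IMA, and single libraries ranged from 23.1 to 100% and from 0 to 62.5%. At ASAP2 circ_0006390 held 35.1% of 77 and 55.9% of 59 reads, at SEC23IP circ_0010941 held 11.3% of 53 and 44.2% of 43 reads, and at OSBPL1A circ_0010492 held 18.9% of 159 and 7.14% of 98 reads. In each of them the ranges over libraries overlapped.

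Among predicted pairs, chi-miR-93-3p was listed for the most trafficking circRNAs, 8 of 56 (14.3%, against 7.46% of all circRNAs), and chi-miR-3955-5p and chi-miR-502b-5p for 7 each, from 6 hosts each (12.5%, against 3.62 and 6.48%). These are sequence predictions by the authors, and no binding was measured.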
